A study of Mus musculus with 6 samples.

Results

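Collagen hydroxylases and the chaperones that fold collagen were followed in the nasomaxillary complex, the bone, cartilage and soft tissue of the nose and upper jaw, of E17.5 mouse embryos. The set holds 10 genes, taken by symbol: P4ha1, P4ha2, P4ha3, P4hb, Plod1, Plod2, Plod3, Serpinh1, Crtap and Ppib. Each was found once among the 24346 gene symbols measured in every library, and all 10 passed the filter on low values, a mean FPKM of 1 or more across the 6 libraries. FPKM divides fragments by transcript length and by the size of the library, so levels of different genes can be compared. How library size was scaled here is unknown. The 3 mutant libraries came from Wnt1-Cre:Pth1r f/f embryos and the 3 control libraries from Pth1r f/f embryos, so both groups carry floxed Pth1r, the gene of the receptor for parathyroid hormone and its related protein. Wnt1-Cre acts in the neural crest, which forms most of the facial skeleton, while muscle fibres, surface epithelium and blood vessels of the dissection derive mainly from other sources. The controls carry no Cre, so an effect of the transgene and one of the lost receptor cannot be told apart. Whether each library is a different embryo or litter is not in the labels, and p-values here reflect just the variation among these samples, which may be technical.

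Collagen is modified while it is made in the endoplasmic reticulum. Prolyl 4-hydroxylase, built from a catalytic alpha subunit (P4ha1, P4ha2 or P4ha3) and the beta subunit P4hb, hydroxylates prolines, and these hydroxyl groups keep the triple helix stable at body temperature. Lysyl hydroxylases, encoded by Plod1, Plod2 and Plod3, act on lysines that later carry sugars or form cross-links. Crtap and the cyclophilin Ppib sit in a complex with the prolyl 3-hydroxylase P3h1, and Serpinh1 encodes HSP47, a chaperone that binds the finished helix. Loss of several of these genes causes brittle bone disease in humans.

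Low FPKM values fall in steps of 1 fragment, and these steps gave estimated depths of 8700000 to 13200000 fragments in mutant libraries and 12100000 to 14300000 in control libraries. Mutant replicate 3 was the shallowest. Pth1r measured 77.3, 78.4 and 69.7 FPKM in mutant replicates 1 to 3, against 75.2, 55.2 and 73.5 FPKM in control replicates 1 to 3 (limma adjusted p = 0.686). A value over the whole gene in a tissue that also holds cells outside the neural crest does not check the genotype labels. By Xist and Y-linked genes, mutant replicate 1 and all 3 controls were female and mutant replicates 2 and 3 male, so no control was male. Markers of the tissues in the dissection were present: cartilage markers summed to 87.2 to 142 FPKM in mutant libraries and 325 to 380 FPKM in controls, and those of osteoblasts and osteocytes to 1043 to 1308 FPKM in mutant libraries and 1019 to 1484 FPKM in controls.

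Plod2 fell in mutant libraries, and it was the only 1 of the 10 genes to pass the test. All 10 had negative changes, from 0.705 to 0.962 times the control mean. The alpha subunit genes P4ha2 and P4ha3 stood at 0.721 and 0.738 times the control mean and Plod1 and Ppib at 0.962 and 0.948 times, with the remaining genes between. The test was limma on log2(FPKM + 1) over 14766 genes with Benjamini-Hochberg adjustment at 0.05, which called 0.264% of all tested genes, 0.203% as lower and 0.061% as higher. In 6 of the 10 genes, namely P4ha1, P4ha2, P4ha3, P4hb, Plod2 and Plod3, every mutant value lay below every control value, against 9.16% of all tested genes. At an unadjusted limma p under 0.05, 7 of the 10 were lower, against 5.96% of all tested genes, where 11.3% passed in either direction. The median log2 change of the 10 was -0.22, against -0.0020 over all tested genes, and 50.8% of all tested genes had a negative change. In bulk tissue, fewer cells that make collagen and less RNA in each of them cannot be told apart.

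**Figure D1:**
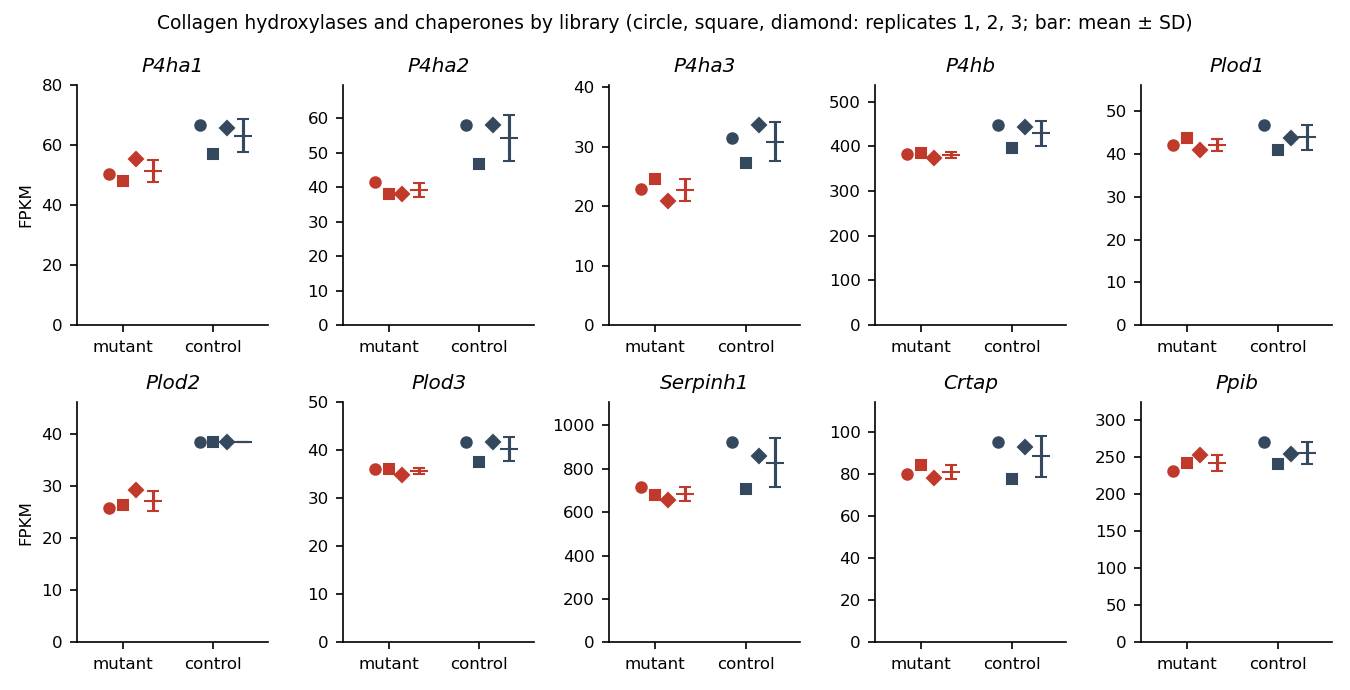
FPKM of each gene (vertical axes, from 0) in the 3 mutant and 3 control libraries, with the mean ± SD beside the points. Plod2 was nearly level in controls, at 38.4 to 38.5 FPKM, and lay at 25.7 to 29.3 FPKM in mutant libraries, while Plod1, Serpinh1, Crtap and Ppib overlapped between groups.

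The alpha subunits carry the active site of prolyl 4-hydroxylase. P4ha1, the most abundant of them (chromosome 10, 59323296 to 59373304, plus strand, GRCm38), measured 50.4, 48.2 and 55.3 FPKM in mutant replicates 1 to 3, against 66.9, 57.0 and 65.9 FPKM in control replicates 1 to 3. The groups did not overlap, and control replicate 2 came within 1.69 FPKM of mutant replicate 3. P4ha1 had a log2 change of -0.30 ± 0.079 (SE), at a limma adjusted p of 0.265. P4ha2 (chromosome 11, 54100095 to 54131665, plus strand) measured 41.4, 38.0 and 38.1 FPKM in mutant libraries and 58.2, 46.7 and 58.2 FPKM in controls. Control replicate 2 again lay below the other controls and above every mutant library. P4ha2 had a log2 change of -0.46 ± 0.091 (SE), at a limma adjusted p of 0.156. P4ha3 (chromosome 7, 100285520 to 100319699, plus strand), the least abundant of the 10 genes, measured 22.9, 24.6 and 20.8 FPKM in mutant libraries and 31.5, 27.3 and 33.7 FPKM in controls. Here too the groups were apart, with a log2 change of -0.42 ± 0.091 (SE) and a limma adjusted p of 0.179. None of the 3 passed the threshold. Each 95% interval of the log2 change lay below 0, but these intervals are not adjusted for the number of genes. The same held for P4hb, Plod2, Plod3 and Serpinh1, and 5.96% of all tested genes were lower at an unadjusted limma p under 0.05.

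Summed over P4ha1, P4ha2 and P4ha3, the alpha subunits measured 115, 111 and 114 FPKM in mutant replicates 1 to 3, against 157, 131 and 158 FPKM in control replicates 1 to 3. P4ha1 made up 43.5% to 48.4% of the sum in mutant libraries and 41.8% to 43.5% in controls, P4ha2 33.3% to 36.1% in mutant libraries and 35.7% to 37.2% in controls, and P4ha3 18.2% to 22.2% in mutant libraries and 20.1% to 21.4% in controls. The P4ha1 share lay apart by 0.014 of a percentage point at its closest, between mutant replicate 2 and control replicate 2. P4hb encodes protein disulfide isomerase, which has other partners besides the alpha subunits. It measured 383, 386 and 374 FPKM in mutant replicates 1 to 3, against 449, 397 and 443 FPKM in control replicates 1 to 3, a log2 change of -0.17 ± 0.060 (SE) with a limma adjusted p of 0.368. Its ratio to the summed alpha subunits was 3.34, 3.49 and 3.27 in mutant libraries and 2.87, 3.03 and 2.81 in controls, so beta subunit transcript per alpha subunit transcript was higher in each mutant library than in any control, a description that was not tested. The alpha subunit sum was itself lower in every mutant library than in any control. A gene at the same level in all libraries would thus also stand higher per alpha subunit transcript.

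The region before the start of each alpha subunit gene is shown because these genes lay lower together, and P4ha1 and P4ha2 are known to be induced in low oxygen by the factor HIF1. The sequences are the 250 bases before the RefSeq start on GRCm38.p6, 5′ to 3′, in the direction of the gene (plus strand in each case), with the HIF core letters ACGTG or GCGTG, or their reverse complements CACGT or CACGC, in capitals.
P4ha1, chr10:59323046-59323295: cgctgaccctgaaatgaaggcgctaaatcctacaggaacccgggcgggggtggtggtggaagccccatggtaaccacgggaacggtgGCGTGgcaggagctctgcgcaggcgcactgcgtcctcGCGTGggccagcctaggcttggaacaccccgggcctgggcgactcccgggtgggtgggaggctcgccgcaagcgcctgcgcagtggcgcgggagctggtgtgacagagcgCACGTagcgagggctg
P4ha2, chr11:54100674-54100923: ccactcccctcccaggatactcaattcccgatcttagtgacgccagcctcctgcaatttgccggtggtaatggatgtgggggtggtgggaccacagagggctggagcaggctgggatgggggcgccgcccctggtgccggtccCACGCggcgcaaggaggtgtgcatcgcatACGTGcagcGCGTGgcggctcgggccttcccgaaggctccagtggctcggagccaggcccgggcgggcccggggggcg
P4ha3, chr7:100285270-100285519: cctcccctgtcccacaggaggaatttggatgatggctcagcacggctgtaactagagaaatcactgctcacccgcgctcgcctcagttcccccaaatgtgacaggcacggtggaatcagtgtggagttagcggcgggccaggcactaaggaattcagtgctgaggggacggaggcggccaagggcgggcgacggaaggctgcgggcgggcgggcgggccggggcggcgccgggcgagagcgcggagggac
The P4ha1 window held 3 cores, beginning 163, 126 and 16 bases before the start. The P4ha2 window held 3, at 107, 78 and 69 bases, and lies in the first intron of 1 GENCODE transcript that begins farther upstream. The P4ha3 window held 0. Of 32851 windows of this length over 27025 genes, 38.6% held at least 1 core and 6.58% held 3 or more, counting both strands and overlapping matches. RefSeq windows were at hand for 9 of the 10 genes, all but Plod2, and 8 of these windows held a core. Each core contains CG, and these windows were 53.6% to 70.0% G and C. The share over all windows was not matched for base content. These letters describe the sequence and do not show that a factor binds there.

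The lysyl hydroxylases differ in where they act. Plod2, which encodes the enzyme that hydroxylates lysines in the collagen telopeptides and so sets the kind of cross-link (chromosome 9, 92542223 to 92608428, plus strand), measured 25.7, 26.3 and 29.3 FPKM in mutant replicates 1 to 3. Its control values were 38.5, 38.4 and 38.4 FPKM in replicates 1 to 3. The groups were 9.11 FPKM apart at their closest. Plod2 fell by 0.49 ± 0.058 (SE) on the log2(FPKM + 1) scale, with a 95% interval of -0.63 to -0.35 and a limma adjusted p of 0.0267. Its control SD, 0.0302 FPKM, was the smallest of the 10 genes, and its mutant SD was 1.93 FPKM. The limma adjusted p was 0.111 without mutant replicate 1, 0.0793 without mutant replicate 2, 0.115, 0.103 and 0.127 without control replicates 1, 2 and 3, 0.0595 with no filter, 0.0669 without trend and 0.204 with sex as a covariate, so each of these ends the call, while the log2 change stayed between -0.56 and -0.46 over all 17 alternatives.

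Plod1, whose enzyme acts on lysines within the helix (chromosome 4, 147909753 to 147936767, minus strand), measured 42.0, 43.6 and 40.9 FPKM in mutant libraries and 46.9, 40.9 and 43.8 FPKM in controls. The groups overlapped, and the 95% interval of the log2 change ran from -0.20 to 0.088 (limma adjusted p = 0.797). Plod3 (chromosome 5, 136987019 to 136996648, plus strand), whose protein also transfers sugars to hydroxylysine, measured 36.1, 36.0 and 34.9 FPKM in mutant libraries and 41.7, 37.4 and 41.7 FPKM in controls. The Plod3 groups lay apart by 1.35 FPKM, with a log2 change of -0.17 ± 0.056 (SE) and a limma adjusted p of 0.336. Within the family, Plod2 made up 24.8%, 24.8% and 27.9% of the summed FPKM in mutant replicates 1 to 3, against 30.3%, 32.9% and 31.0% in control replicates 1 to 3. Plod1 made up 38.9% to 41.2% in mutant libraries and 35.1% to 36.9% in controls, and the Plod3 share overlapped between groups. The family as a whole summed to 105 ± 1.06 FPKM in mutant libraries and 123 ± 5.24 FPKM in controls (SD, n = 3 each). Plod2 was the lowest of the 3 in all mutant libraries and in control replicates 1 and 3, and lay above Plod3 in control replicate 2.

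**Figure D2:**
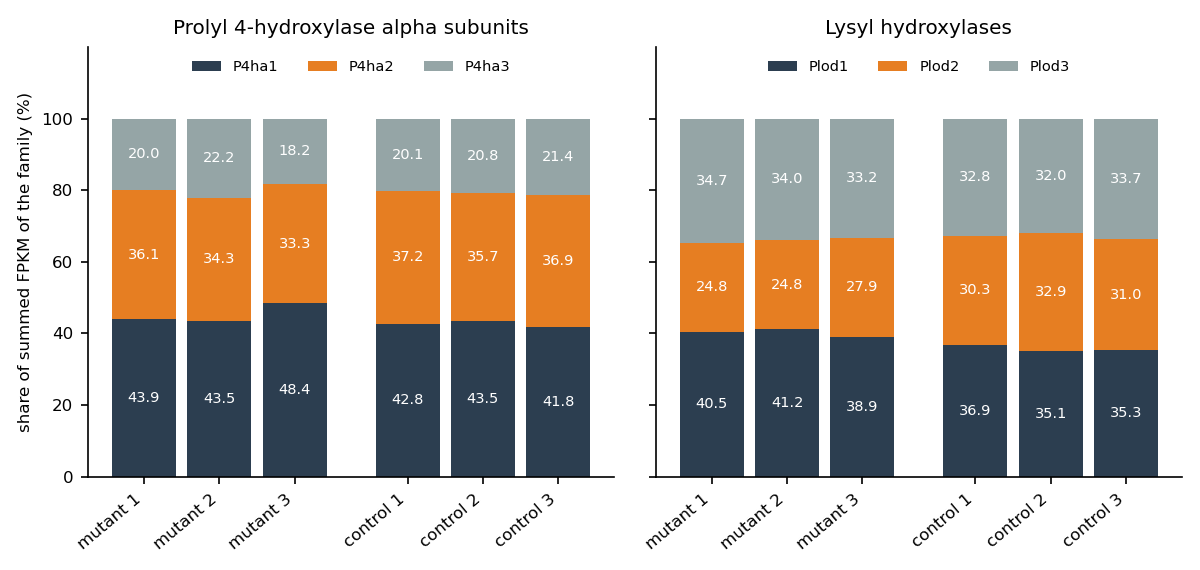
Share of each gene in the summed FPKM of its family (vertical axis, percent) in each mutant and control library, for the alpha subunits (left) and the lysyl hydroxylases (right). The Plod2 share was 24.8% to 27.9% in mutant libraries and 30.3% to 32.9% in controls.

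The chaperone Serpinh1 (chromosome 7, 99345376 to 99353239, minus strand) had the highest level of the 10 genes and rank 97 among the 14766 tested genes. It measured 718, 681 and 656 FPKM in mutant replicates 1 to 3, against 924, 705 and 858 FPKM in control replicates 1 to 3. Control replicate 2 lay among the mutant values. Serpinh1 had a log2 change of -0.27 ± 0.10 (SE), at a limma adjusted p of 0.396. Crtap (chromosome 9, 114375134 to 114390675, minus strand) measured 79.9, 84.5 and 78.1 FPKM in mutant libraries and 95.3, 77.4 and 92.7 FPKM in controls. Ppib (chromosome 9, 66060222 to 66066623, plus strand) measured 232, 242 and 253 FPKM in mutant libraries and 271, 242 and 255 FPKM in controls. Both overlapped between groups, and their 95% intervals of the log2 change were -0.32 to 0.071 and -0.22 to 0.065 (limma adjusted p of 0.634 and 0.693). P3h1, the catalytic partner of the pair, measured 57.3 ± 4.43 FPKM in mutant libraries and 67.7 ± 7.93 FPKM in controls (SD, n = 3 each), with a limma adjusted p of 0.429. Crtap per P3h1 was 1.38, 1.38 and 1.48 in mutant libraries and 1.28, 1.31 and 1.32 in controls, and Ppib per P3h1 overlapped between groups. These ratios were not tested.

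By mean over all libraries the order of levels was Serpinh1, P4hb, Ppib, Crtap, P4ha1, P4ha2, Plod1, Plod3, Plod2 and P4ha3, a span of 28.3-fold. The first 5 kept this order in all 6 libraries. The order of P4ha2 and Plod1 differed by group, with P4ha2 below Plod1 in all 3 mutant libraries and above it in all 3 controls, though their ranges overlapped within each group. This difference in order was not tested. Plod1 with Plod3, and Plod3 with Plod2, had overlapping ranges in controls and separate ones in mutant libraries. Within the control group, replicate 2 was lowest of the 3 controls for 9 of the 10 genes, all but Plod2, whose controls differed by less than 0.1 FPKM. The share of all tested genes lowest in that library was not computed, so this count shows nothing particular to the 10 genes. Control replicate 2 was also lowest of the controls for Col1a1, at 4065 FPKM beside 5328 and 5149 FPKM. The same held for the summed osteoblast markers, at 1019 FPKM beside 1451 and 1484 FPKM. It held as well for the cartilage, fibroblast and tendon, muscle, endothelium and leukocyte sums. The neuron and red blood cell sums were highest in that library, and the epithelium sum lay between the others. Its total FPKM was 514693, beside 546322 and 534347 in control replicates 1 and 3. Among mutant libraries replicate 3 was lowest for 6 genes and highest for P4ha1, Plod2 and Ppib. In mutant replicate 1, the female mutant library, 7 of the 10 genes lay below all 3 female controls. This count rests on 1 library, and the share of all tested genes in that position was not computed.

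Exons of Plod2, Plod3 and Ppib share bases with another gene on the opposite strand, and Plod3 also with Mir702 on its own strand. The kit keeps strand, but the strand setting of the counting is not given in the sources used here, so reads of such partners cannot be told apart with certainty. Znhit1, opposite Plod3, had 30.7 to 36.3 FPKM in mutant libraries and 32.0 to 36.9 FPKM in controls. Snx22, opposite Ppib, had 58.3 to 63.8 FPKM in mutant libraries and 60.7 to 70.0 FPKM in controls, and Mir702 was listed at 0 in all libraries. The partner of Plod2, Gm38391, is not among the symbols analysed here. Splice forms, such as those known for Plod2, are merged in a value per gene.

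Among 13 other genes of collagen folding and modification limma called 0, with 4 at an unadjusted p under 0.05. Of these genes 11 had negative changes, and the median log2 change of the 13 was -0.14. P3h4, which helps lysyl hydroxylation of the helix, measured 38.6 ± 1.74 FPKM in mutant libraries and 46.9 ± 5.70 FPKM in controls (limma adjusted p = 0.336). Fkbp10, a prolyl isomerase that works with the Plod2 enzyme, measured 111 ± 7.66 FPKM in mutant libraries and 131 ± 14.4 FPKM in controls (SD, n = 3 each; limma adjusted p = 0.398). Of 11 tested genes of procollagen export and propeptide cleavage limma called 0, with 3 at an unadjusted p under 0.05. Pcolce, whose product speeds removal of the C-propeptide, stood at 220 ± 11.9 FPKM in mutant libraries and 291 ± 40.6 FPKM in controls (limma adjusted p = 0.258). Sec23a, a coat protein of export vesicles, stood at 24.2 ± 0.561 FPKM in mutant libraries and 28.2 ± 1.98 FPKM in controls (limma adjusted p = 0.289). Mia2 of that list was listed at 0 throughout and was not tested.

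**Figure D3:**
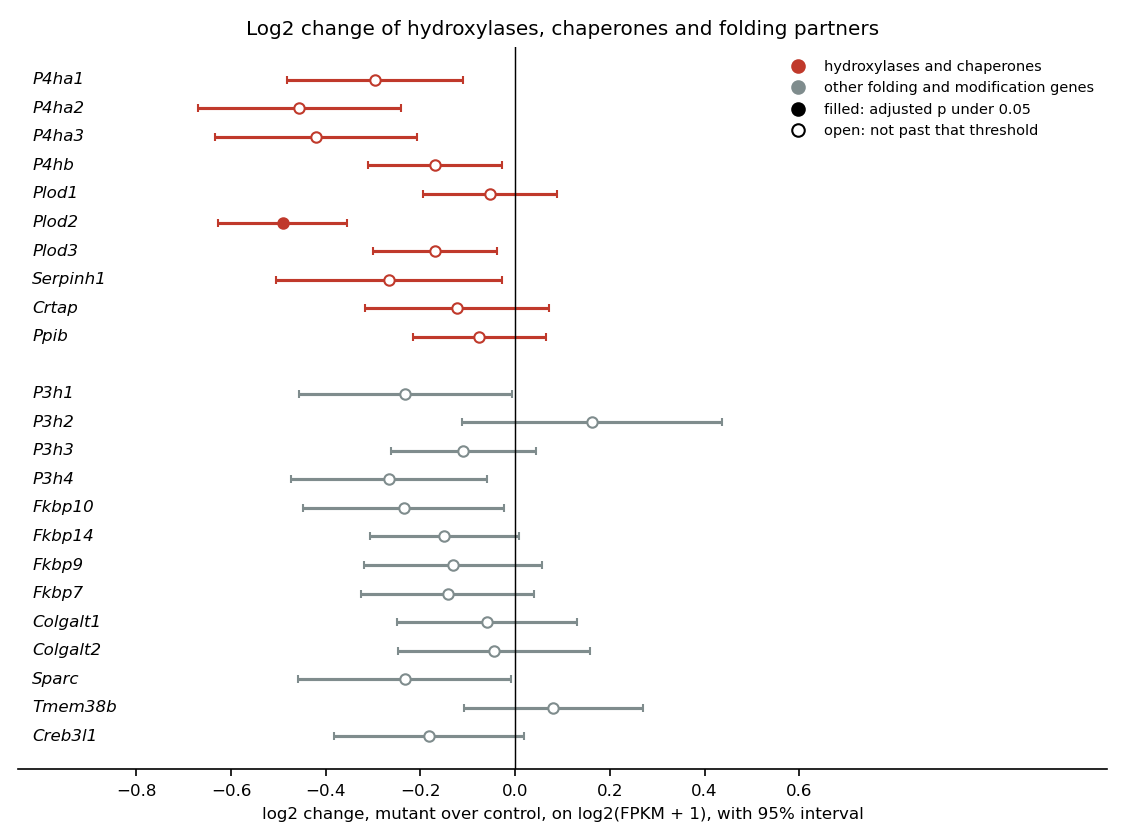
Log2 change of mutant over control with its 95% interval (horizontal axis) for the 10 hydroxylases and chaperones and for 13 other folding and modification genes. Plod2 alone is filled, at -0.49, while P4ha2 and P4ha3 stand at -0.46 and -0.42 with wider intervals.

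General chaperones and stress genes of the endoplasmic reticulum had log2 changes between -0.16 and 0.040, with a median of -0.056. Of these 13 genes limma called 0, with 1 at an unadjusted p under 0.05. In 5 of the 13 every mutant value lay below every control value, against 9.16% of all tested genes. The same held for 1 of the 13 other folding genes and 3 of the 11 tested export and cleavage genes. Atf4, a transcription factor of the stress response, measured 145 ± 2.59 FPKM in mutant libraries and 162 ± 6.21 FPKM in controls (limma adjusted p = 0.298). Pdia4, a disulfide isomerase related to P4hb, measured 89.5 ± 1.45 FPKM in mutant libraries and 95.6 ± 3.83 FPKM in controls (limma adjusted p = 0.507). P4ha1 and Plod2 are known targets of HIF1, and 11 other HIF1-induced genes were set beside them. Limma called 0 of the 11, with 1 at an unadjusted p under 0.05, and the median log2 change was 0.037. That 1 gene, Egln3, itself a prolyl hydroxylase that acts on HIF, measured 35.3 ± 2.91 FPKM in mutant libraries and 31.6 ± 0.372 FPKM in controls (limma adjusted p = 0.433). Adm, which encodes adrenomedullin, measured 1.88 ± 0.480 FPKM in mutant libraries and 1.43 ± 0.232 FPKM in controls (limma adjusted p = 0.626). Among 7 protein hydroxylases that use the same cofactors but do not act on collagen, limma called 0, with Egln3 alone at an unadjusted p under 0.05 and a median of 0.017. Jmjd6 of that list, a lysyl hydroxylase of nuclear proteins, measured 31.2 ± 1.40 FPKM in mutant libraries and 33.7 ± 0.825 FPKM in controls (limma adjusted p = 0.494).

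The collagens themselves, the substrates of these enzymes, moved unequally. Of 7 cartilage collagen genes limma called 4 lower and 1 higher. Col2a1 fell to 182 ± 67.5 FPKM in mutant libraries, against 702 ± 88.3 FPKM in controls (limma adjusted p = 0.0267), and Col9a3 to 66.2 ± 21.1 FPKM, against 204 ± 14.9 FPKM in controls (limma adjusted p = 0.0267). Col10a1 rose to 64.4 ± 11.5 FPKM in mutant libraries, against 1.26 ± 0.0371 FPKM in controls (limma adjusted p = 1.18e-05). The Col2a1 and Col9a3 calls were each lost without mutant replicate 1 or any 1 control, with limma adjusted p between 0.0892 and 0.122, and also with no filter, without trend, with robust variances and with sex as a covariate, with limma adjusted p between 0.0591 and 0.335. The 4 lower calls of the list became 0 without mutant replicate 1 or control replicate 1, 2 or 3, and 2 or 5 when mutant replicate 2 or mutant replicate 3 was left out, while Col10a1 stayed called in each. Of 8 collagens of bone and fibrous tissue limma called 0, with 4 at an unadjusted p under 0.05. Col1a1 measured 3871 ± 263 FPKM in mutant libraries and 4847 ± 683 FPKM in controls, and Col1a2 2783 ± 83.0 FPKM in mutant libraries and 3387 ± 419 FPKM in controls (limma adjusted p of 0.388 and 0.382). Col14a1, of fibrous tissue, measured 45.0 ± 9.98 FPKM in mutant libraries and 32.2 ± 4.25 FPKM in controls (limma adjusted p = 0.364). Among 5 basement membrane collagens limma called 0, with 2 at an unadjusted p under 0.05, Col4a6 (2.97 ± 0.0359 FPKM in mutant libraries and 2.03 ± 0.118 FPKM in controls, limma adjusted p = 0.177) and Col4a5 (8.93 ± 0.411 FPKM in mutant libraries and 7.15 ± 0.904 FPKM in controls, limma adjusted p = 0.325).

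**Figure D4:**
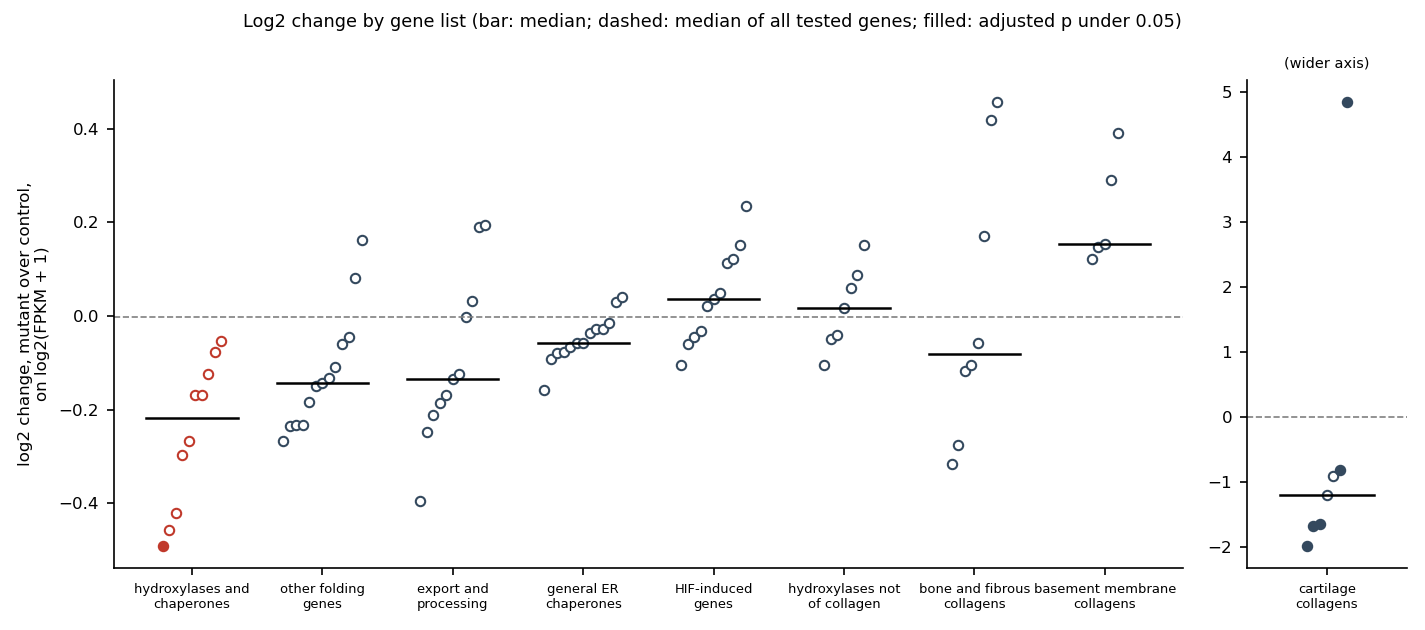
Log2 change of mutant over control (vertical axes) for each tested gene of 9 lists, with the list's median as a bar. The hydroxylases and chaperones have a median of -0.22 and all lie below 0, the general chaperones and HIF-induced genes have medians of -0.056 and 0.037, and the cartilage collagens, on a wider axis, reach from -1.99 to 4.84.

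Summed over the 20 collagen genes of the 3 lists, collagen transcript measured 9313 ± 217 FPKM in mutant libraries and 11780 ± 1347 FPKM in controls (SD, n = 3 each), or 0.791 times the control mean. Col1a1 and Col1a2 made up 69.2% to 73.2% of it in mutant libraries and 68.0% to 70.8% in controls. Relative to this sum, the 10 genes took different positions. Per 1000 FPKM of collagen, P4ha2 measured 4.34, 4.18 and 4.09 FPKM in mutant replicates 1 to 3, against 4.56, 4.56 and 4.72 FPKM in control replicates 1 to 3, and it was the only 1 of the 10 whose mutant values all stayed below the controls. Plod2 measured 2.70, 2.89 and 3.15 FPKM in mutant libraries and 3.01, 3.75 and 3.11 FPKM in controls, with overlap. P4ha1, P4ha3 and Serpinh1 also overlapped. P4hb, Plod1, Plod3, Crtap and Ppib were higher per collagen transcript in every mutant library than in any control, by 1.12 to 1.21 times on the means. The collagen sum was itself lower in mutant libraries, at 9104 to 9538 FPKM, against 10245 to 12765 FPKM in controls. A gene at the same level in all libraries would thus also stand higher per collagen transcript in every mutant library. The share of all tested genes that did so, or that stayed below the controls as P4ha2 did, was not computed. These positions therefore show nothing particular to the 10 genes. The summed alpha subunits per 1000 FPKM of collagen were 12.0 to 12.3 FPKM in mutant libraries and 12.3 to 12.8 FPKM in controls. These ratios are descriptions within each library and were not tested.

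**Figure D5:**
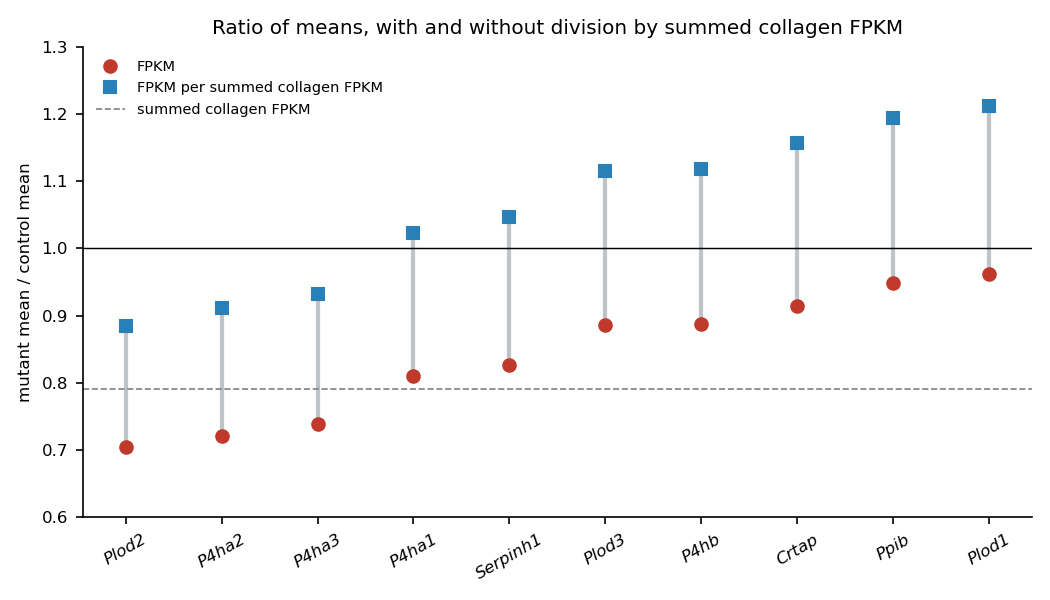
Mutant mean over control mean of each gene (vertical axis), as FPKM (circles) and as FPKM divided by the summed collagen FPKM of the same library (squares), with the collagen sum itself at 0.791 as a dashed line. Plod2, P4ha2 and P4ha3 lie below the collagen sum, at 0.705, 0.721 and 0.738, and the other 7 genes above it.

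The marker lists of the tissues in the dissection differed in how they lay between groups. The sum of 8 cartilage markers was 0.304 times the control mean in mutant libraries, and limma called 5 of them lower, namely Acan, Matn1, Ucma, Epyc and Cnmd (2 without mutant replicate 1 or control replicate 1, 2 or 3, and 4 or 7 when mutant replicate 2 or mutant replicate 3 was left out). The 10 skeletal muscle markers summed to 592 to 1496 FPKM in mutant libraries and 397 to 657 FPKM in controls, and the 7 markers of skin and oral epithelium to 1707 to 1815 FPKM in mutant libraries and 617 to 1500 FPKM in controls. In these lists all genes had positive changes and limma called 0, with 5 and 6 at an unadjusted p under 0.05. The muscle sums overlapped between groups, with mutant replicate 2 highest, and the epithelium sums did not. Of the 6 fibroblast and tendon markers limma called 1 lower. This was Fmod, which encodes fibromodulin, a proteoglycan that binds collagen fibrils, and it was picked out after its values were seen. It measured 32.1, 34.3 and 30.1 FPKM in mutant replicates 1 to 3, against 55.9, 50.2 and 64.0 FPKM in control replicates 1 to 3, and fell by 0.79 on the log2(FPKM + 1) scale (limma adjusted p = 0.0267). The Fmod call held in 10 of 17 alternatives and was lost with no filter, without trend, with sex as a covariate and when mutant replicate 1 or 3 or control replicate 1 or 3 was left out, with limma adjusted p up to 0.406. The sum of those 6 markers overlapped between groups, at 355 to 464 FPKM in mutant libraries and 410 to 458 FPKM in controls. Of the 7 osteoblast markers limma called 0, with 2 at an unadjusted p under 0.05, and their sum overlapped between groups. The 2 went opposite ways. Bglap measured 5.61 ± 1.74 FPKM in mutant libraries and 17.6 ± 9.26 FPKM in controls (limma adjusted p = 0.233). Phex measured 11.0 ± 1.07 FPKM in mutant libraries and 8.30 ± 1.64 FPKM in controls (limma adjusted p = 0.363). Ibsp, at a mean of 924 FPKM over all libraries, made up most of the sum. The 6 leukocyte markers summed to 214 to 217 FPKM in mutant libraries and 176 to 195 FPKM in controls, with 0 called by limma and 2 at an unadjusted p under 0.05. Limma also called 0 of 5 endothelium, 5 neuron and 4 tested red blood cell markers, with 2, 0 and 0 at an unadjusted p under 0.05, and the sum of each list overlapped between groups. Of the markers measured in these lists, Hbb-bs alone was listed at 0 in a library, mutant replicate 2. The part of cartilage, fibrous tissue, muscle and epithelium content in the values of the 10 genes was not tested.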

How the data were processed

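Messenger RNA of 6 libraries was grouped by the genotype label. The authors deposited FPKM values, one per gene symbol and library, per the file headers. The submitters' processing notes name TopHat2 2.1.1, Bowtie2 2.2.8, SAMtools 0.1.18, Cuffdiff 2.2.1 and build mm10, which has the coordinates of GRCm38. Annotation, filters, strand setting and scaling between libraries are unknown here. Per the labels, RNA was extracted with TRIzol and the library kit keeps strand.

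FPKM are not counts, so log2(FPKM + 1) was fitted without further scaling by limma 3.58.1 in R 4.3.3 (lmFit, eBayes with trend, two-sided, no covariate) over the 14766 genes whose mean FPKM was 1 or more, adjusted by Benjamini-Hochberg with a threshold of 0.05. The fit has 4 residual degrees of freedom and was tested on simulated data. Log2 changes carry their SE, FPKM means their SD over 3 libraries. Depth was estimated from ratios of values under 0.15 FPKM and the lengths of 87 genes.

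The genes and lists were chosen with earlier results of these data known. Named genes are the 10, P3h1, Fkbp10, 4 collagens, and from each list up to 3 called genes or the 2 of smallest p. Other pseudocounts, filters, scalings, variance models, sex as a covariate and leaving out each library were tried. Positions are from GENCODE M21 and promoter windows from RefSeq, GRCm38.p6. Plots used matplotlib 3.10.9.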

Additional observations from a re-analysis of the deposited data

How the results depend on the processing

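All 10 genes kept negative log2 changes in each of the 17 alternatives, and no named gene changed sign. The count of these genes past the threshold, 1 with the values as reported, was 0 with no filter, without trend or with sex as a covariate, and 0 to 1 when each library was left out. The count over all genes, 39 as reported (9 higher, 30 lower), was 18 with no filter, 19 without trend, 71 with library weights and 10 with sex as a covariate, and 17 to 44 when each library was left out. The no filter setting tests more genes. The sex covariate leaves 1 female mutant library to set against the 3 female controls. For the other changes the cause was not tested. The other 13 folding genes had 0 calls in every setting. Over the alternatives the median log2 change of all tested genes stayed within 0.0068 of 0. Limma called none of the other 9 genes in any alternative, the smallest adjusted p being 0.0544 for P4ha2. No paired analysis was possible because the labels number no replicates: numbers 1 to 3 in each group follow the order of deposit and only name the libraries. Mutant replicate 3 had the lowest estimated depth, 8700000 fragments, and the precision of each library was not measured.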
